A study of Mus musculus with 30 samples.

Results

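The genes described here are 44 mouse genes known to be induced by type I interferon. They are given by a list of symbols that was chosen with earlier results of these data known. Of the 44, 36 reached at least 10 counts in at least 5 of the 30 libraries. These 36 measured members are among 11718 tested genes of the 55573 in the table. The libraries come from naive CD8+ T cells of 8 week old C57BL/6 mice, isolated by magnetic sorting from lymph nodes and spleen. All cells spent 3 days on plate-bound antibodies against CD3 and CD28, at 5 µg/ml each, in serum-free X-VIVO 20 medium. The 6 groups, with 5 libraries each, were Furin KO cells with TGFB1 (0.5 ng/ml), KO cells with IL12 (10 ng/ml), KO cells without added cytokine, and WT cells under the same conditions. TGFB1 is a cytokine that restrains T cells and IL12 one that drives their interferon-gamma production. Furin encodes a proprotein convertase, and the labels give neither the deleted part of the gene nor the cells that carry the deletion. Each group held 4 female and 1 male library, the males being numbers 63 (KO) and 62 (WT).

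Type I interferons bind the receptor chains IFNAR1 and IFNAR2, and the kinases JAK1 and TYK2 then phosphorylate STAT proteins. These join IRF9 and bind a short promoter element, the interferon-stimulated response element. The induced proteins sense foreign RNA and DNA, block steps of virus replication, add the ubiquitin-like protein ISG15 to other proteins, or limit the signal itself. In T cells, tonic interferon signalling keeps such genes at a basal level, and strong signalling can also slow division and alter survival.

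Levels are CPM (counts scaled to library size) scaled by TMM factors, and library totals ran from 7306151 to 15502443 counts. Values for each library are given in the order 63, 68, 70, 73 and 74 in KO and 62, 67, 71, 72 and 75 in WT. Log2 fold changes are KO over WT or cytokine over no added cytokine. They come from the edgeR quasi-likelihood test with Benjamini-Hochberg adjustment over all genes tested, and a gene is called at an adjusted p below 0.05. The labels do not say whether a number is an animal, so p-values measure only the spread between these libraries. Furin RNA was 32.6 ± 0.828 CPM in KO and 34.5 ± 3.57 CPM in WT without added cytokine (SD, n = 5 each). As the deleted part is not given, these levels do not check the KO label. The 6 CD8 T-cell markers (Cd8a, Cd8b1, Cd3d, Cd3e, Cd3g and Trac) were tested and summed to between 1690 and 4287 CPM in each library. Of 5 B-cell markers, Cd79b had 3222 counts over all 30 libraries and the others 1 (Pax5) to 37 (Ebf1). Of 6 markers of plasmacytoid dendritic cells, Siglech and Klk1 had 0 counts, Cox6a2 76, Ccr9 220, Spib 538 and Tcf4 714. Of 6 markers of conventional dendritic cells, Cd209a had 0, Xcr1 and Clec9a 1 each, and Zbtb46 715. The CD4 T-cell markers Cd4 and Zbtb7b had 148 and 4871 counts. The neutrophil markers S100a8, S100a9, Ly6g and Retnlg summed to at most 2.90 CPM in any library (a KO library without added cytokine), and the 6 macrophage markers had 5 (Fcgr1) to 218 (Lyz2) counts each.

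Promoter windows of 300 bases, from 250 before to 50 after each transcript start, were taken from RefSeq on GRCm38.p6 for 33 of the 44 genes, in 38 windows. Each was searched on both strands for GAAANNGAAA, the core of the interferon-stimulated response element, counting overlapping matches. The core stood in 22 of the 38 windows (57.9%), against 1131 of 32851 windows in all (3.44%). By gene, 20 of 33 members (60.6%) held it, against 3.99% of 27025 genes. TTCNNNGAA, the shape bound by dimers of STAT proteins, stood in 5 of the 38 (13.2%) and in 8.3% of all windows. Isg15 and Ifit3, which were lower in KO in all 3 conditions, are shown whole, with every match to the core in capitals. The first runs on the minus strand at chr4:156200769-156201068, where 3 matches overlap, and the second on the plus strand at chr19:34583279-34583578, where both matches lie on the opposite strand.

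Isg15: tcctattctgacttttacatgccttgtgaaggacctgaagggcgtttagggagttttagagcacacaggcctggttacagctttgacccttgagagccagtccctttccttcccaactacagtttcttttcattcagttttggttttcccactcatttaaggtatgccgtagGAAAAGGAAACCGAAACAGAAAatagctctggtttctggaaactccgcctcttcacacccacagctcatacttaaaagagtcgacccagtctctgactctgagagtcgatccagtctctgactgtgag

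Ifit3: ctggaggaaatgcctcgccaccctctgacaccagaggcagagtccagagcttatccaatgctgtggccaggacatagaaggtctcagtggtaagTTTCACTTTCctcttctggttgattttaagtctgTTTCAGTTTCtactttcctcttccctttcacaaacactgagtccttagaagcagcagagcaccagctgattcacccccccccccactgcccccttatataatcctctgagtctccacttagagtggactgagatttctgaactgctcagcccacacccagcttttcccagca

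The Ifi200 genes lie in a cluster on chromosome 1, and Ifi206 had the largest fall of all members in KO with TGFB1. Ifi209, of this cluster, had a window without the core and was also called lower in KO with TGFB1 (log2 fold change -1.81). Ifi206, Ifi213, Ifi208, Ifi214 and Ifi203 hold the same match to the core. The 50 bases around it are shown because they allow a comparison within the family, and capitals mark the shared match. The windows are chr1:173491329-173491378 (minus strand), chr1:173599316-173599365 (minus), chr1:173673587-173673636 (plus), chr1:173536007-173536056 (minus) and chr1:173942498-173942547 (minus).

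Ifi206: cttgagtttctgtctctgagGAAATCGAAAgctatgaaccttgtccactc

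Ifi213: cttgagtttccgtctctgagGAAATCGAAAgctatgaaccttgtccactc

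Ifi208: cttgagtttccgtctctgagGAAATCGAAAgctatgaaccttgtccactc

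Ifi214: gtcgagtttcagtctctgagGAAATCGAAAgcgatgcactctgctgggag

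Ifi203: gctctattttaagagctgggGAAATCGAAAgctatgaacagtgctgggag

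Ifi213 and Ifi208 are identical over these 50 bases, Ifi206 differs from both at a single base with 49 identical, and Ifi214 and Ifi203 share 36 and 29 bases with Ifi206. These are promoter bases. Transcripts were not compared, and how reads of related Ifi200 genes were divided in counting is not known. Of the 28 members called lower in KO with TGFB1, 22 had a window and 14 of these held the core (63.6%). Of the 8 measured members not called there, 7 had a window and 5 held it (71.4%).

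Levels per kilobase of exon differed widely between members. In WT cells without added cytokine Ifi27l2a, a small mitochondrial protein induced by interferon, had the highest mean, at 264 CPM per kilobase. Bst2, the tetherin that holds budding virus at the cell surface, followed with 172 CPM per kilobase. Slfn1, a schlafen gene tied to restraint of T-cell growth, had 69.3, Ifi35 59.2 and Phf11b 41.8 CPM per kilobase in the same cells. At the low end, Ifit1 had 0.670, Rsad2, the viperin that blocks virus replication, 0.484 and Oasl2 0.102 CPM per kilobase. The 8 members below the limit of 10 counts in 5 libraries were Oas2, Phf11d, Ifi44 and Ifit3b, with no library at 10 counts, and Mx1, Mx2, Ifi204 and Oasl1, with 1, 2, 2 and 3 libraries. C57BL/6 mice carry a defective Mx1 allele. Oasl2, Ifi213 and Ifi208 were just inside the limit, with 5, 8 and 9 libraries. Ifi213 had 144 of its 313 counts and Ifi208 110 of its 249 in WT with TGFB1. Oasl2 had 120 of its 207 in WT with IL12. These were the highest groups of each gene, so comparisons with them are not independent of the limit.

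The 36 genes were set side by side over libraries by their position in each, taken as the median over the genes of log2 CPM minus the gene's mean over 30 libraries. With TGFB1 this was 0.03, -0.998, -0.87, 0.01 and -1.47 in KO, against 0.44, 0.71, 0.70, 0.36 and 0.88 in WT, so every KO library lay below every WT library. With IL12 it was -0.31, -0.85, -0.52, -0.01 and -0.93 in KO, against 0.06, 0.03, 0.30, -0.26 and -0.05 in WT, where KO 73 lay above WT 72 and 75. Without added cytokine it was 0.03, -0.50, -0.33, 0.58 and -0.48 in KO, against 0.25, 0.55, 1.14, 0.78 and 0.64 in WT, and KO 73 lay within the WT range. Library KO 73 without added cytokine was the highest of its group for 34 of the 36 genes. WT 71 was the highest of its group for 32, and WT 62 the lowest for 26. KO 74 was the lowest KO library for 22 genes with TGFB1 and 19 with IL12. In bulk RNA, fewer cells of a type and less RNA per cell cannot be told apart.

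**Figure D1:**
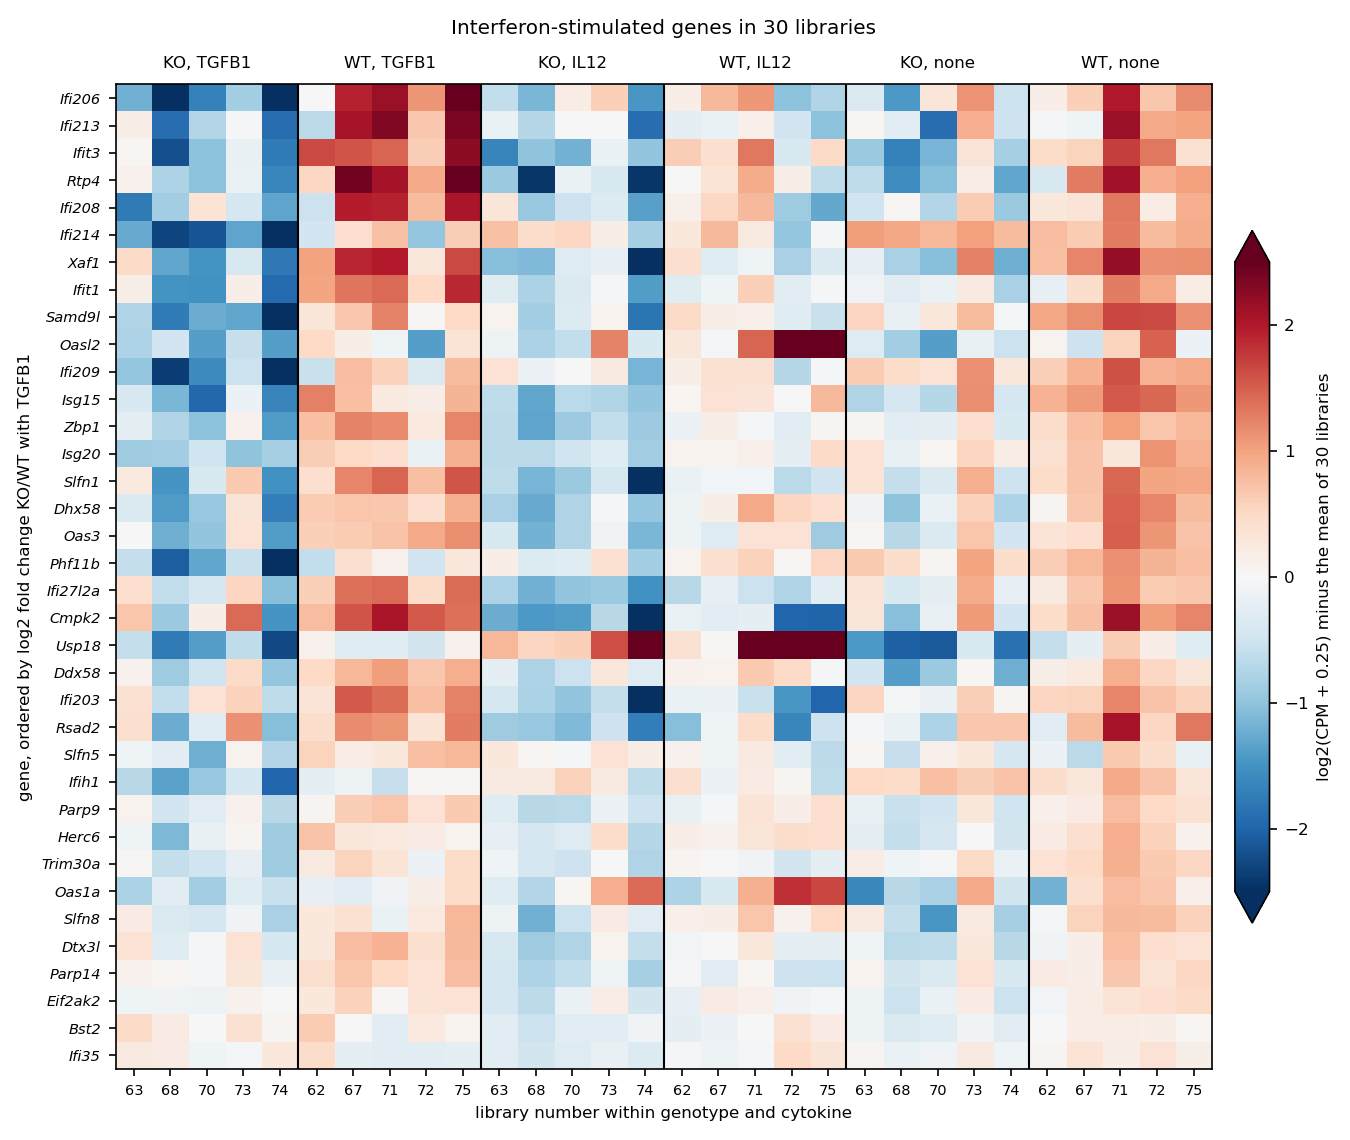
Heat map of log2(CPM + 0.25) minus each gene's mean over 30 libraries, for the 36 measured genes in rows and the libraries of 6 groups in columns. KO libraries with TGFB1 are the bluest block in the upper rows, and Usp18 and Oasl2 stand out in red in some IL12 libraries.

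**Figure D2:**
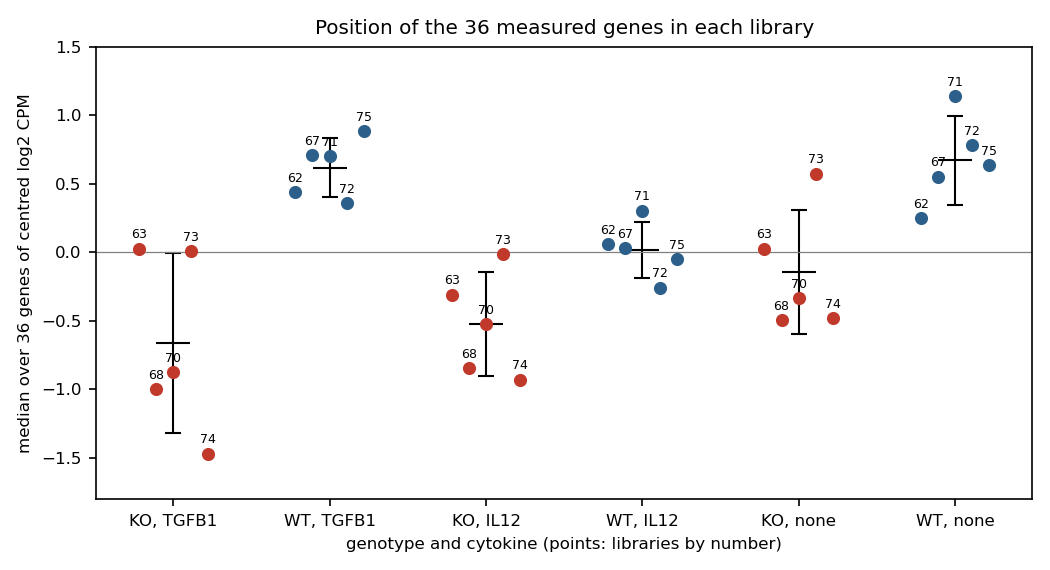
Median over the 36 genes of centred log2 CPM in each library (points with library numbers), by genotype and cytokine, with the group mean and SD in black. KO and WT libraries do not overlap with TGFB1, at -1.47 to 0.03 in KO and 0.36 to 0.88 in WT.

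With TGFB1, 28 of the 36 members fell in KO and 0 rose, and the 30 with an unadjusted p below 0.05 were all lower. Ifi213 and Ifi208 are among the 28, and their calls are not independent of the limit of counts. An unadjusted p below 0.05 was held by 46.0% of all tested genes, in either direction. Of all tested genes 17.3% were called lower and 18.3% higher in this comparison. As the members were chosen with earlier results of these data known, the shares beside them are a description. The median log2 fold change of the members was -1.23, beside -0.0061 for all genes tested. A negative value was held by 34 of 36, beside 50.7% of all genes. In 16 members every KO library was below every WT library, which was so for 3.91% of all genes. The largest fall was that of Ifi206, an Ifi200 family member of the class that binds DNA. Ifi206 had 0.532, 0, 0.312, 0.758 and 0 CPM in KO, against 1.57, 6.61, 7.77, 3.60 and 11.2 CPM in WT (log2 fold change -4.24 ± 0.70 SE, adjusted p = 0.000191). All 5 KO libraries were below the lowest WT library, WT 62. Rtp4, a chaperone that moves receptors to the cell surface and restrains interferon responses, had 1.20, 0.539, 0.416, 0.947 and 0.184 CPM in KO, against 1.68, 6.96, 5.47, 2.37 and 7.59 CPM in WT (log2 fold change -2.90 ± 0.58 SE, adjusted p = 0.000699). The Rtp4 annotation overlaps Masp1, and the strand setting of the counting is not given in the sources used here. Xaf1, which counters inhibitors of apoptosis, had 3.19, 0.755, 0.624, 1.61 and 0.460 CPM in KO, against 4.70, 8.97, 9.45, 2.75 and 7.49 CPM in WT (log2 fold change -2.38 ± 0.52 SE, adjusted p = 0.00133). KO 63 lay above WT 72 for Xaf1, so its groups overlapped.

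With TGFB1 Ifit3 had 0.931, 0, 0.312, 0.758 and 0.0921 CPM in KO, against 3.36, 3.19, 2.91, 1.52 and 5.19 CPM in WT (log2 fold change -2.97 ± 0.52 SE, adjusted p = 0.00031). Ifit1, which recognises viral RNA lacking cap methylation, fell by 2.36 on the log2 scale (adjusted p = 0.000426). For both genes no KO library reached the lowest WT library. Isg15 had 2.39, 1.29, 0.624, 2.84 and 0.829 CPM in KO, against 7.95, 5.54, 3.796, 3.60 and 5.96 CPM in WT (log2 fold change -1.75 ± 0.36 SE, adjusted p = 0.000954). Zbp1, a sensor of Z-form nucleic acid that can start necroptosis, had 23.7, 16.3, 13.4, 29.7 and 10.1 CPM in KO, against 46.5, 65.7, 63.3, 32.5 and 64.5 CPM in WT (log2 fold change -1.55 ± 0.22 SE, adjusted p = 6.32e-05). The KO values of both ended below the WT values. Among the members of the RIG-I family of RNA sensors, Ddx58 (RIG-I) had -1.06, Dhx58 (LGP2) -1.35 and Ifih1 (MDA5) -0.87 as log2 fold changes, and all were called.

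The smallest called fall with TGFB1 was that of Parp14, at -0.51. Parp9 and Dtx3l, which encode an ADP-ribosyltransferase and a ubiquitin ligase that act as a complex, had -0.72 and -0.62. The annotations of these 2 genes overlap, so the origin of reads in the shared stretch depends on that setting. Isg20, an RNA exonuclease, had -1.47, and Samd9l, a restrainer of translation and growth, had -2.21. Slfn1, Slfn5, Trim30a, Herc6, Oas3, Cmpk2, Phf11b and Ifi27l2a had log2 fold changes between -1.39 (Slfn1) and -0.71 (Trim30a). The 8 members not called were Oasl2 (-1.83), Usp18 (-1.10), Rsad2 (-1.02), Oas1a (-0.69), Slfn8 (-0.63), Eif2ak2 (-0.37), Bst2 (0.07) and Ifi35 (0.20). Usp18, the protease that removes ISG15, was nonetheless below WT in every KO library. Under every alternative run, 25 of the 28 kept their call, and Cmpk2, Dtx3l and Ifi203 did not. CD8 T-cell markers moved as well: 5 of 6 were called lower in KO with TGFB1 and 0 higher, with a list median of -0.54 and summed levels of 2174 to 2938 CPM in KO, against 2672 to 4287 CPM in WT. Ccr9, a marker of plasmacytoid dendritic cells that T cells can also express, fell (-2.79). The other 2 tested markers of that list had 0.44 (Tcf4) and -0.11 (Spib), not called, for a list median of -0.11. The list summed to 4.70 to 7.01 CPM in KO, against 4.27 to 10.3 CPM in WT. The part of these markers in the result was not tested.

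**Figure D3:**
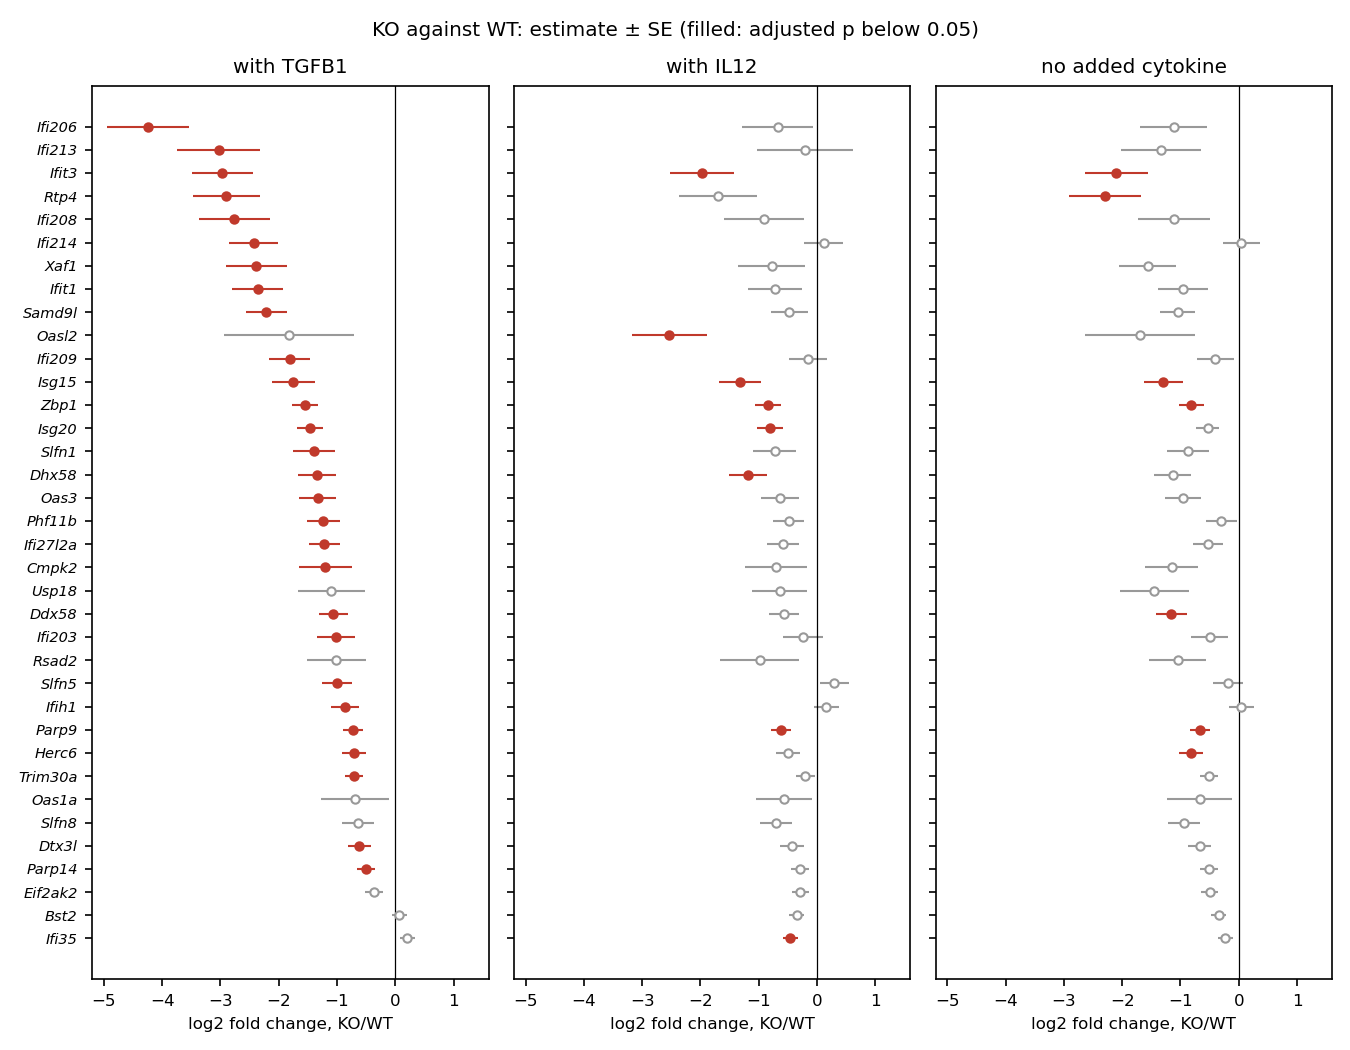
Log2 fold change of KO over WT with its SE for each of the 36 genes with TGFB1, with IL12 and without added cytokine, in 1 panel each (filled red: adjusted p below 0.05). With TGFB1 all but 2 estimates are below 0 and 28 are called; 8 and 7 are called in the other panels.

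Without added cytokine, 7 of the 36 members fell in KO and 0 rose, and the 23 with an unadjusted p below 0.05 were all lower. Of all tested genes, 18.7% had an unadjusted p below 0.05 in either direction. The shares of all genes called were 1.02% lower and 1.08% higher. The median log2 fold change of the members was -0.84, beside -0.0019 for all genes. A negative value was held by 34 of 36, beside 50.4% of all genes. In 6 members (Bst2, Ddx58, Herc6, Ifit3, Samd9l and Zbp1) every KO library was below every WT library, beside 3.54% of all genes. Isg15 had 1.79, 2.30, 1.85, 7.45 and 2.30 CPM in KO, against 6.01, 6.89, 9.66, 8.97 and 7.04 CPM in WT (log2 fold change -1.30 ± 0.33 SE, adjusted p = 0.037). KO 73 was inside the WT range and the other KO libraries were below it. Ddx58, the RNA sensor RIG-I, had 14.5, 7.62, 10.6, 21.1 and 8.59 CPM in KO, against 22.6, 24.2, 38.2, 29.1 and 25.1 CPM in WT (log2 fold change -1.154 ± 0.26 SE, adjusted p = 0.0227). Herc6, the mouse ligase that attaches ISG15, had 9.21, 7.10, 8.05, 10.8 and 7.89 CPM in KO, against 12.7, 14.4, 20.6, 16.4 and 11.8 CPM in WT (log2 fold change -0.81 ± 0.21 SE, adjusted p = 0.035). Both separated the genotypes, with KO 73 the nearest to WT.

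Zbp1 without added cytokine had 29.1, 22.5, 23.5, 36.9 and 21.2 CPM in KO, against 37.7, 46.5, 56.4, 44.5 and 49.5 CPM in WT (log2 fold change -0.81 ± 0.21 SE, adjusted p = 0.0389). Ifit3 had 0.357, 0.104, 0.264, 1.19 and 0.400 CPM in KO, against 1.33, 1.44, 3.53, 2.63 and 1.25 CPM in WT (log2 fold change -2.10 ± 0.54 SE, adjusted p = 0.0366). The highest KO library stayed below the lowest WT library in both. Rtp4 (-2.29) and Parp9 (-0.66) completed the calls. The number of calls changed when single libraries were left out, for a reason that was not tested. By edgeR 0 members were called without KO 68, KO 70, KO 74, WT 71 or WT 72. In these fits 19, 21, 21, 18 and 21 members had an unadjusted p below 0.05. The count was 2 without KO 63 or WT 75, 12 without WT 62 and 16 without KO 73, and the median stayed between -1.12 and -0.69 without any 1 library. DESeq2 called 14 members, and fitting the 10 libraries without the others gave 18. Shares of all genes called in these alternative fits are not given here, so the counts cannot be set beside them. Cd79b, the one B-cell marker that passed the filter, was lower in KO without added cytokine (-0.67), with TGFB1 (-0.55) and with IL12 (-0.69). The other 4 B-cell markers had at most 37 counts each over 30 libraries, and the part of B cells in these results was not tested.

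With IL12, 8 of the 36 members fell in KO and 0 rose, and the 15 with an unadjusted p below 0.05 were all lower. Of all tested genes, 24.4% had an unadjusted p below 0.05 in either direction. Of all genes, 4.01% were called lower and 2.76% higher. The members' median log2 fold change was -0.60, beside -0.0004 for all genes. A negative value was held by 33 of 36, beside 50.1% of all genes. In 5 members (Ifi27l2a, Ifi35, Isg15, Isg20 and Zbp1) every KO library was below every WT library, beside 2.76% of all genes. Isg15 had 1.97, 1.146, 1.90, 1.79 and 1.48 CPM in KO, against 3.28, 4.17, 4.05, 3.16 and 5.80 CPM in WT (log2 fold change -1.32 ± 0.36 SE, adjusted p = 0.0271). Zbp1 had 17.4, 10.9, 14.5, 18.02 and 14.6 CPM in KO, against 24.9, 30.4, 26.98, 23.1 and 28.8 CPM in WT (log2 fold change -0.84 ± 0.22 SE, adjusted p = 0.0232). Neither gene overlapped between the genotypes. Dhx58, the sensor LGP2, had 4.74, 3.38, 4.92, 8.29 and 4.201 CPM in KO, against 7.79, 9.40, 16.6, 12.4 and 11.4 CPM in WT (log2 fold change -1.19 ± 0.33 SE, adjusted p = 0.0284). Its annotation overlaps the antisense gene Dhx58os. Parp9 had 98.3, 75.1, 76.5, 109.5 and 85.3 CPM in KO, against 107, 119, 155, 137 and 163 CPM in WT (log2 fold change -0.62 ± 0.17 SE, adjusted p = 0.0295). KO 73 exceeded the lowest WT library for both Dhx58 and Parp9.

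Ifit3 with IL12 had 0.116, 0.318, 0.259, 0.769 and 0.329 CPM in KO, against 1.503, 1.26, 2.60, 0.632 and 1.35 CPM in WT (log2 fold change -1.97 ± 0.55 SE, adjusted p = 0.0303). KO 73 lay above WT 72. Oasl2 had the largest estimate (log2 fold change -2.54 ± 0.64 SE, adjusted p = 0.0194) at under 4 CPM per group, with Isg20 at -0.81 and Ifi35 at -0.46. Oasl2 had 120 of its 207 counts in WT with IL12, so its call is not independent of the limit of counts. As without cytokine, the count changed when single libraries were left out. EdgeR called 0 members without KO 68, KO 70 or WT 75, where 9, 13 and 16 members had an unadjusted p below 0.05. It called 4, 5, 4 and 3 members without KO 63, WT 71, WT 72 and KO 74, and the median stayed between -0.72 and -0.46. Fitting these 10 libraries without the others gave 2. The shares of all genes called in these alternative fits are not given here either. Of the CD8 T-cell markers, 1 of 6 (Cd8b1) was lower in KO with IL12, with summed levels of 1690 to 2263 CPM in KO, against 2002 to 2515 CPM in WT, and its part was not tested.

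Across the 3 conditions, 30 of the 36 members were called lower in KO in at least 1, and Bst2, Eif2ak2, Oas1a, Rsad2, Slfn8 and Usp18 in none. Ifit3, Isg15, Parp9 and Zbp1 were called in all 3, and 31 members had a negative estimate in all 3. Zbp1 was the only member whose KO libraries were below every WT library in each condition. Shares of all genes were not computed for these joint counts. In single conditions, 17.3% of all genes were called lower with TGFB1, 4.01% with IL12 and 1.02% without added cytokine. Parp9 in full had 129, 87.6, 100.4, 131 and 75.2 CPM in KO and 127, 188, 197, 157 and 192 CPM in WT with TGFB1 (log2 fold change -0.72 ± 0.17 SE, adjusted p = 0.00234). Without added cytokine it had 107, 83.2, 87.0, 149 and 85.8 CPM in KO and 134, 140.1, 208, 172 and 158 CPM in WT (log2 fold change -0.66 ± 0.17 SE, adjusted p = 0.0373). KO 63 and KO 73 lay just above WT 62 with TGFB1, and KO 73 alone was inside the WT range without it. The exceptions to the common direction were Ifi214, Ifih1, Slfn5, Bst2 and Ifi35, each with an estimate at or above 0 in 1 or more conditions and none called higher.

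In KO, 8 members fell with TGFB1 and 1 rose relative to KO cells without added cytokine, while 11% of all genes were called lower and 13.5% higher. Ifi214, an Ifi200 gene, had 1.596, 0.647, 0.727, 1.52 and 0.0921 CPM with TGFB1, against 8.76, 8.35, 7.52, 8.75 and 7.39 CPM without added cytokine in KO (log2 fold change -3.18 ± 0.41 SE, adjusted p = 9.21e-07). Ifi209, of the same cluster, had 16.1, 5.93, 10.3, 21.6 and 3.87 CPM with TGFB1, against 48.9, 43.6, 40.8, 69.5 and 38.5 CPM without in KO (log2 fold change -2.07 ± 0.35 SE, adjusted p = 5.98e-05). No library with TGFB1 reached the level of any without it in either gene. Samd9l had 3.06, 1.40, 2.08, 1.99 and 0.552 CPM with TGFB1, against 7.78, 4.59, 6.47, 9.39 and 5.19 CPM without in KO (log2 fold change -1.91 ± 0.35 SE, adjusted p = 0.000191). Phf11b, a PHD-finger gene induced by interferon, had 18.1, 6.36, 11.02, 18.5 and 4.24 CPM with TGFB1, against 43.0, 37.4, 28.8, 54.8 and 37.4 CPM without in KO (log2 fold change -1.81 ± 0.28 SE, adjusted p = 2.19e-05). These 2 also separated fully. Ifih1 (-1.65), Ifi206 (-2.32), Isg20 (-1.17) and Trim30a (-0.49) were the other falls, and Bst2 rose (0.46). Under every alternative run, 7 of these 9 kept their call, and Ifi206 and Trim30a did not. More members were called when the library number was fitted as a fixed block term, as given in the section on the processing alternatives. Markers called in the same comparison were Cd79b (0.50), Zbtb7b (0.61), Cd8a (0.34), Tcf4 (1.11) and Gzmc (-2.68), and their part in the result was not tested.

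In WT, 3 members fell with TGFB1 and 0 rose (6 had an unadjusted p below 0.05, all lower), beside 18.6% of all genes called lower and 19.2% higher. Of all genes, 46.8% had an unadjusted p below 0.05 in either direction. More members were called when the library number was fitted as a block, as given in the section on the processing alternatives. Phf11b had 17.8, 35.98, 29.5, 19.6 and 33.1 CPM with TGFB1, against 42.0, 49.0, 60.8, 49.4 and 46.4 CPM without in WT (log2 fold change -0.86 ± 0.27 SE, adjusted p = 0.0115). Samd9l had 6.61, 8.61, 12.9, 5.41 and 7.59 CPM with TGFB1, against 10.6, 12.1, 17.4, 17.2 and 11.9 CPM without in WT (log2 fold change -0.75 ± 0.29 SE, adjusted p = 0.0444). Ifih1, the RNA sensor MDA5, had 7.50, 8.02, 5.83, 9.01 and 8.94 CPM with TGFB1, against 12.01, 10.8, 17.2, 14.6 and 10.9 CPM without in WT (log2 fold change -0.74 ± 0.22 SE, adjusted p = 0.00973). In Phf11b and Ifih1 the groups did not overlap, and in Samd9l WT 71 with TGFB1 lay within the range without. The call of Samd9l ended without any one of WT 67, 71 or 72 without cytokine or WT 62, 67, 72 or 75 with TGFB1, and among females alone (adjusted p up to 0.118). The median of the members was -0.33 in KO and 0.04 in WT. In WT, 5 of 6 CD8 T-cell markers rose with TGFB1 (list median 0.59; summed levels 2672 to 4287 CPM with TGFB1, against 2347 to 2699 CPM without). Ccr9 (2.62), Tcf4 (1.45) and Zbtb7b (0.55) rose too, and the part of these markers in the result was not tested.

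The difference of these responses, KO minus WT, was called for 1 member, lower in KO, beside 1.69% of all genes called lower and 1.61% higher. This was Ifi214, whose response was -3.18 in KO and -0.71 in WT (difference -2.47, adjusted p = 0.0173). With TGFB1 it had 1.596, 0.647, 0.727, 1.52 and 0.0921 CPM in KO, against 2.91, 5.66, 7.06, 1.99 and 6.44 CPM in WT (log2 fold change -2.43 ± 0.42 SE, adjusted p = 0.000253), with no overlap. Without added cytokine it had 8.76, 8.35, 7.52, 8.75 and 7.39 CPM in KO, against 7.23, 6.58, 10.5, 7.30 and 8.06 CPM in WT, and the ranges overlapped. Ifi206 had the next smallest p (difference -3.13, adjusted p = 0.0586), with 1.16, 0.417, 1.98, 3.67 and 0.999 CPM in KO and 1.78, 2.47, 6.95, 2.63 and 3.86 CPM in WT without added cytokine. Isg20 followed (difference -0.93, adjusted p = 0.0733). It had 1.06, 1.08, 1.45, 0.947 and 1.10 CPM in KO and 3.47, 3.19, 3.001, 1.90 and 4.23 CPM in WT with TGFB1, and 2.86, 1.88, 2.24, 3.24 and 2.497 CPM in KO and 2.89, 3.70, 2.71, 5.02 and 4.2 CPM in WT without. For Isg20 all KO libraries with TGFB1 were below all WT libraries. Leaving out WT 62 with TGFB1 gave 7 calls, KO 73 with TGFB1 5, WT 72 with TGFB1 4 and WT 71 without cytokine 2, and Ifi214 was called in every alternative run. Shares of all genes called in these refits are not given here. Fitting the library number as a block also gave more calls for this difference, as given in the section on the processing alternatives.

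**Figure D4:**
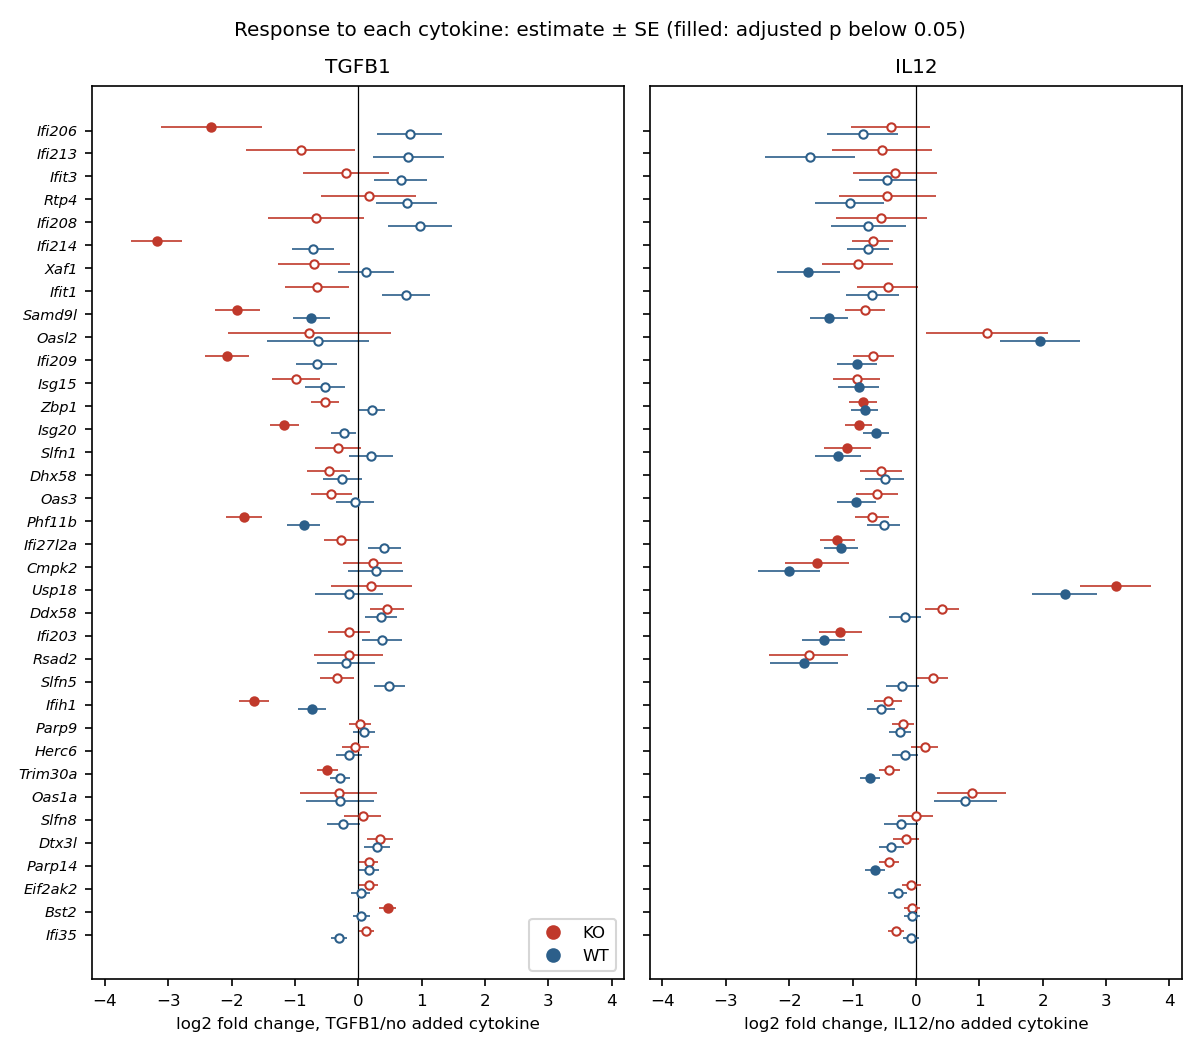
Log2 fold change of each cytokine over no added cytokine with its SE for the 36 genes, TGFB1 on the left and IL12 on the right, with KO in red above WT in blue (filled: adjusted p below 0.05). Ifi214 has the lowest KO estimate with TGFB1, at -3.18, and Usp18 stands at 3.15 in KO and 2.35 in WT with IL12.

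With IL12, 30 of the 36 members in KO and 33 in WT had a negative log2 fold change against no added cytokine, and Usp18 rose in both genotypes. Of all genes, 50.1% in KO and 48.5% in WT had a negative value. In KO 6 members fell and 1 rose, beside 5.74% of all genes called lower and 8.49% higher. In WT 14 fell and 2 rose, beside 8.3% of all genes lower and 10.5% higher. Under every alternative run, 5 of the 7 calls in KO and 8 of the 16 in WT were kept. In KO more members were called with the library number as a block, as given in the section on the processing alternatives. The members' median was -0.45 in KO and -0.66 in WT. Cmpk2, a nucleotide kinase next to Rsad2 in the genome, had 4.05, 3.50, 3.62, 6.06 and 0.988 CPM with IL12, against 12.3, 4.70, 8.71, 20.8 and 6.99 CPM without in KO (log2 fold change -1.56 ± 0.51 SE, adjusted p = 0.0371). In WT it had 8.75, 8.14, 8.38, 2.32 and 2.28 CPM with IL12, against 13.8, 16.7, 45.0, 20.6 and 23.3 CPM without (log2 fold change -2.001 ± 0.48 SE, adjusted p = 0.00435). The WT groups did not overlap, and in KO only KO 73 with IL12 lay above the lowest library without. The KO call for Cmpk2 ended without KO 63 or KO 73 of the cells without cytokine, or KO 63, 68, 70 or 74 with IL12, and among females alone (adjusted p up to 0.151).

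Ifi27l2a had 44.1, 32.4, 37.9, 39.5 and 26.2 CPM with IL12, against 93.4, 57.4, 64.3, 143 and 64.7 CPM without in KO (log2 fold change -1.237 ± 0.27 SE, adjusted p = 0.0023). Ifi203, an Ifi200 gene whose annotation overlaps its neighbour Mndal, had 24.4, 19.04, 16.6, 21.9 and 4.53 CPM with IL12, against 48.2, 32.7, 30.1, 50.4 and 35.0 CPM without in KO (log2 fold change -1.19 ± 0.34 SE, adjusted p = 0.0156). In WT Ifi203 had 29.4, 29.8, 22.4, 11.9 and 8.18 CPM with IL12, against 48.0, 48.8, 77.5, 54.7 and 49.4 CPM without (log2 fold change -1.46 ± 0.34 SE, adjusted p = 0.00302). Each of these 3 pairs of groups was fully separated. Xaf1 had 3.01, 1.74, 2.02, 1.16 and 1.66 CPM with IL12, against 3.89, 5.45, 11.1, 5.14 and 5.22 CPM without in WT (log2 fold change -1.69 ± 0.50 SE, adjusted p = 0.0172), again with no overlap. Its call ended without WT 71 of the cells without cytokine or WT 72 with IL12 (adjusted p up to 0.073), and the WT count of calls was 9 without either. Ifi27l2a fell in WT too (log2 fold change -1.18, adjusted p = 0.00254), with no overlap. Slfn1, Isg20 and Zbp1 fell in both genotypes as well, with -1.09, -0.90 and -0.83 in KO and -1.22, -0.63 and -0.80 in WT.

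Usp18, which removes ISG15 and also blocks signalling at IFNAR2, had 16.9, 13.6, 14.2, 29.1 and 77.4 CPM with IL12, against 3.31, 2.09, 1.98, 7.13 and 2.40 CPM without in KO (log2 fold change 3.15 ± 0.56 SE, adjusted p = 0.000293). In WT it had 12.3, 9.59, 59.8, 69.5 and 84.7 CPM with IL12, against 6.12, 8.02, 14.4, 10.5 and 7.49 CPM without (log2 fold change 2.35 ± 0.51 SE, adjusted p = 0.00171). Every KO library with IL12 exceeded every KO library without, while WT 62 and WT 67 with IL12 lay within the range without. The high libraries were KO 74 and WT 71, 72 and 75. Oasl2, an antiviral paralog of the oligoadenylate synthetases, was the second member that rose in WT (log2 fold change 1.96 ± 0.63 SE, adjusted p = 0.0291), with 0.547, 0.388, 1.54, 3.58 and 6.42 CPM with IL12, against 0.445, 0.206, 0.707, 1.56 and 0.341 CPM without. WT 72 and WT 75 lay above every library without cytokine, and the other 3 did not. This call of Oasl2 is also not independent of the limit of counts. Ifng, the type II interferon gene, had 338, 419, 439.8, 566 and 1426 CPM in KO and 276, 302, 750.5, 1370 and 1282 CPM in WT with IL12, and Furin had 161, 120.0, 132, 196 and 463 CPM in KO and 161, 182, 511, 533 and 485 CPM in WT. The same 4 libraries were the highest for both of these genes. They were the lowest of their groups for Ifi203, and KO 74, WT 72 and WT 75 were the lowest for Cmpk2. The NK-cell markers Gzmc and Klre1 also rose with IL12, with the summed list at 7.63 to 25.1 CPM in KO and 8.24 to 26.8 CPM in WT, against 2.30 to 5.18 CPM in KO and 1.18 to 3.83 CPM in WT without. Ncr1, Klrb1c and Klra8 had 36, 20 and 13 counts over all 30 libraries. Zbtb46 (0.83 in KO and 0.97 in WT) and Tcf4 (0.85 and 1.14) also rose with IL12, Cd8b1 fell in KO (-0.49), and the part of these genes in the result was not tested.

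**Figure D5:**
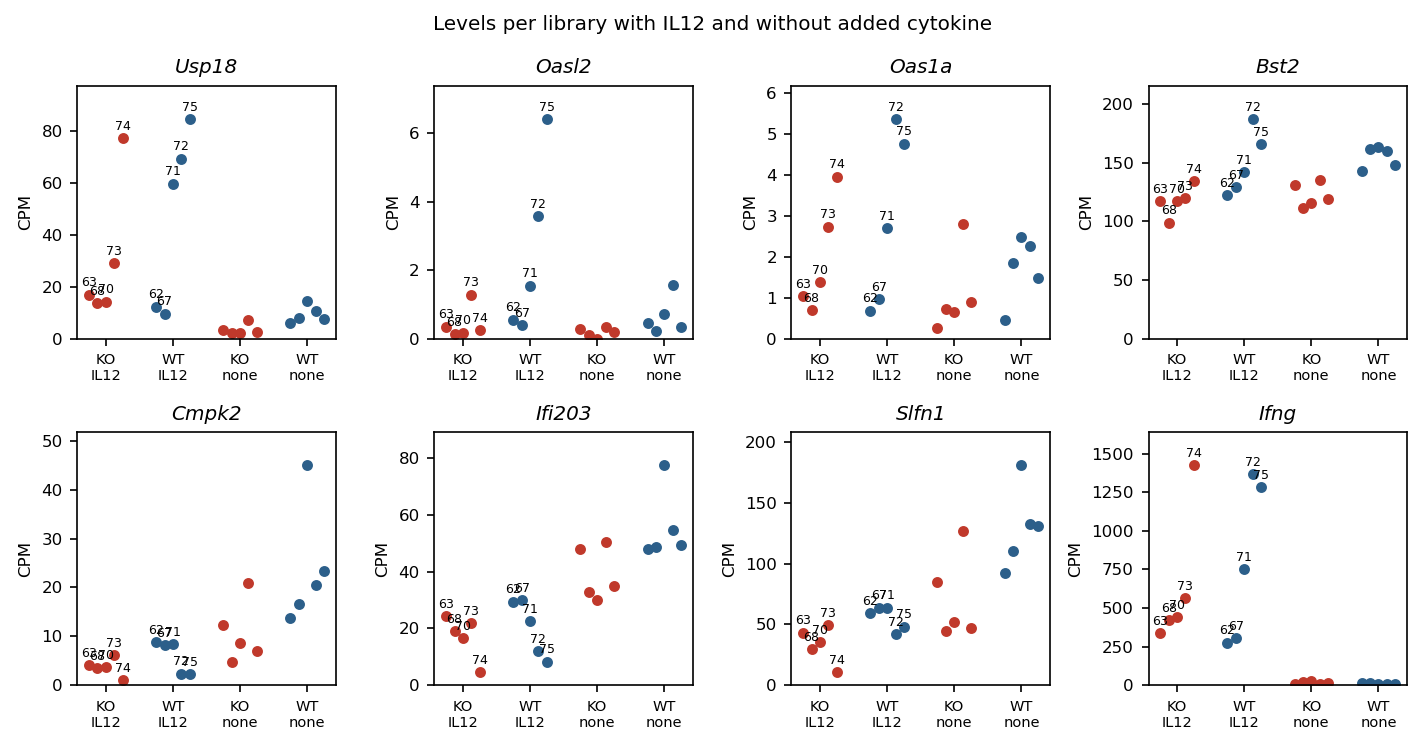
CPM per library (points, numbered for IL12) of 7 interferon-stimulated genes and Ifng in KO and WT cells with IL12 and without added cytokine. KO 74 and WT 71, 72 and 75 hold the highest Usp18 and Ifng values, and KO 74, WT 72 and WT 75 the lowest Cmpk2 values.

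No gene was called for a difference of the IL12 responses of KO and WT. It was called by edgeR for 0 members, beside 0.0% of all genes in either direction. An unadjusted p below 0.05 was held by 0 members, beside 4.38% of all genes. DESeq2 called 0 members too. The 3 smallest p were those of Ddx58 (log2 fold change 0.58 ± 0.36 SE, adjusted p = 0.997), Trim30a (log2 fold change 0.31 ± 0.23 SE, adjusted p = 0.997) and Slfn5 (log2 fold change 0.48 ± 0.36 SE, adjusted p = 0.997). Ddx58 had 17, 11.7, 13.9, 24.6 and 16.2 CPM in KO and 21.9, 21.7, 32.1, 28.3 and 19.5 CPM in WT with IL12. Trim30a, a TRIM protein that dampens inflammatory signalling, had 83.2, 67.1, 62.6, 90.2 and 53.0 CPM in KO and 93.5, 90.5, 84.0, 65.4 and 75.8 CPM in WT with IL12, and 102, 82.9, 86.6, 124 and 80.0 CPM in KO and 115, 126, 166, 141 and 129 CPM in WT without. Slfn5 had 3.35, 2.87, 2.67, 3.59 and 3.13 CPM in KO and 3.01, 2.52, 3.28, 2.21 and 1.66 CPM in WT with IL12, and 2.86, 1.77, 3.03, 3.35 and 1.998 CPM in KO and 2.45, 1.64, 4.48, 3.83 and 2.38 CPM in WT without. The estimates were positive for 27 of 36 members, with a median of 0.22. Of all genes 48.1% had a negative estimate, with a median of 0.008.

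The genes that start the pathway were next to absent at the RNA level. The 20 type I and type III interferon genes looked at had 11 counts in all over the 30 libraries, 296650209 counts in sum, with at most 1 in any library and gene. Ifnb1 had 1 count, in KO 74 with IL12. The receptor and signal chain list had 10 tested genes of 11. With TGFB1 7 were lower in KO and 0 higher (median -0.54), with IL12 1 lower and 1 higher (median -0.49), and without cytokine 2 lower and 1 higher (median -0.56). Of all tested genes, 17.3% were called lower and 18.3% higher in KO with TGFB1. The shares were 4.01% and 2.76% with IL12, and 1.02% and 1.08% without cytokine. Ifnar1, the first receptor chain, had 64.1, 39.9, 56.2, 81.1 and 40.5 CPM in KO, against 61.2, 112, 102, 93.3 and 129 CPM in WT with TGFB1 (log2 fold change -0.82 ± 0.20 SE, adjusted p = 0.00275). Ifnar2, the signalling chain, had 36.2, 25.7, 29.4, 45.9 and 24.7 CPM in KO, against 36.1, 67.6, 81.2, 53.9 and 73.4 CPM in WT with TGFB1 (log2 fold change -0.95 ± 0.19 SE, adjusted p = 0.000655). In both, KO 63 and KO 73 lay above WT 62, and the other 3 KO libraries below every WT library.

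Irf9, the DNA-binding part of the complex, rose with TGFB1 in both genotypes, by 0.78 in KO and 0.82 in WT on the log2 scale. Irf9 with TGFB1 had 45.6, 26.4, 38.3, 55.1 and 30.1 CPM in KO, against 45.6, 61.6, 82.2, 54.0 and 74.2 CPM in WT (log2 fold change -0.70 ± 0.20 SE, adjusted p = 0.00946), where KO 63 and KO 73 exceeded WT 62. Stat2, another part of that complex, without added cytokine had 20.3, 11.9, 13.7, 30.8 and 12.4 CPM in KO, against 28.5, 26.1, 38.0, 45.8 and 32.2 CPM in WT (log2 fold change -0.93 ± 0.22 SE, adjusted p = 0.0261), and its call ended without KO 68, KO 70, KO 74, WT 71 or WT 72 (adjusted p up to 0.112). Stat2 with TGFB1 had 32.2, 21.1, 25.6, 36.8 and 24.5 CPM in KO, against 44.1, 30.6, 33.3, 36.7 and 35.5 CPM in WT (log2 fold change -0.36 ± 0.21 SE, adjusted p = 0.186). Irf7, the factor that amplifies interferon production, had 1.20, 0.324, 0.831, 3.69 and 0.368 CPM in KO, against 4.26, 14.3, 17.4, 8.82 and 17.4 CPM in WT with TGFB1 (log2 fold change -3.24 ± 0.50 SE, adjusted p = 0.000116). All KO libraries were below all WT libraries. Without added cytokine Irf7 had 1.79, 0.626, 0.924, 2.38 and 1.40 CPM in KO, against 3.23, 3.804, 11.4, 3.35 and 3.75 CPM in WT (log2 fold change -1.81 ± 0.52 SE, adjusted p = 0.0593), with no overlap, and with IL12 its estimate was -1.44 (adjusted p = 0.097). Irf7 rose with TGFB1 in WT (1.29) and had -0.14 in KO (adjusted p = 0.892), and the difference of these responses was not called (adjusted p = 0.244).

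Jak1 fell in KO with TGFB1 (-0.50), and Jak2, used by the interferon-gamma receptor, rose in KO without cytokine (0.36) and with IL12 (0.54). Of 10 tested nucleic acid sensors and adaptors outside the members, 2 were lower and 1 higher in KO with TGFB1 (Adar -0.49, Ikbke -0.81 and Mavs 0.37). Beside this and the counts that follow, 17.3% of all genes were called lower and 18.3% higher in KO with TGFB1. With IL12 the shares of all genes were 4.01% lower and 2.76% higher, and without cytokine 1.02% and 1.08%. Of the 6 interferon regulatory factors, 4 were lower and 1 higher in KO with TGFB1, 1 was lower with IL12 and 1 without. The 4 were Irf7, Irf1, Irf2 (-0.33) and Irf3 (-0.29). Irf1 fell in KO in all 3 conditions (-0.55 with TGFB1, -0.70 with IL12 and -0.53 without), and Irf8 rose with TGFB1 (0.39). The interferon-gamma-led list, with 18 tested genes such as Gbp4 and Psmb9, had 7 lower and 1 higher in KO with TGFB1, 5 lower and 0 higher with IL12 and 3 lower and 0 higher without. Its medians in that order were -0.35, -0.44 and -0.42. Gbp4, a GTPase, had -1.13 and Psmb9, an immunoproteasome subunit, -0.46 with TGFB1. Of 39 further tested interferon-stimulated genes, 19 were lower and 0 higher in KO with TGFB1, 3 lower and 0 higher with IL12, and 5 lower and 1 higher without, with medians of -0.48, -0.28 and -0.41. Ly6e (-1.08), Epsti1 (-1.36) and Ddx60 (-2.96) were among the falls with TGFB1.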

How the data were processed

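RNA of 30 libraries was measured by RNA-seq with a directional kit, per the labels' protocols. The authors deposited 1 table of raw counts per gene; the submitters' processing notes name FastQC, Trim Galore, STAR, DESeq2 1.24.0 and GRCm38. A counting tool or strand setting is not given in the sources used here. Symbols were matched for 55480 of 55573 genes. The members and lists were chosen with earlier results of these data known.

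The edgeR 4.0.16 quasi-likelihood test (R 4.3.3) was fitted with TMM factors to 6 group means over all libraries, on 11718 genes passing filterByExpr (minimum count 10), holding 99.884% of counts. P-values were adjusted by Benjamini-Hochberg over these genes. The biological coefficient of variation was 14.3%. Libraries held 7306151 to 15502443 counts, so levels below about 1 CPM rest on few reads. The fit was run on simulated data with the same spread (14.3%) for every gene, independent libraries and changes in KO without cytokine alone. That run does not test the fit for genes with a larger spread or for libraries that vary together.

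Values per library are given for called members with the 4 largest changes, if the higher group reached 4 CPM, per comparison, members called in all 3 genotype comparisons, the 3 smallest p per difference of responses, and Isg15, Ifit3, Stat2, Irf9, Irf7, Ifnar1, Ifnar2, Ifnb1 and Ifng. Values of Dhx58, Usp18, Oasl2 and Furin in further groups were added after they were seen. Some items are not reported here. Alternatives were DESeq2 1.42.0, limma-voom 3.58.1 with the library number as a block, other scaling and filters, subsets of libraries, and leaving out each library.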

Additional observations from a re-analysis of the deposited data

Results flagged for a closer look

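Of 168 groups of 5 libraries looked at, 14 held a library far from the other 4 by Dixon's test at its 95% critical value (0.71), where chance gives about 1 in 20. WT 71 without added cytokine stood high for Xaf1 (11.07 CPM), Ifi209 (95.4), Ifi203 (77.5), Irf7 (11.42) and Ifnar2 (52.53). KO 73 without added cytokine stood high for Isg15 (7.45 CPM), Xaf1 (5.614), Usp18 (7.126), Ifit3 (1.188) and Ifnar2 (32.07). With IL12, WT 71 stood high for Irf7 (5.973 CPM), and KO 74 for Usp18 (77.43). With TGFB1, KO 73 stood high for Irf7 (3.695 CPM) and WT 62 for Herc6 (18.03). The response of Ifi214 to TGFB1 differed between KO and WT, by -2.47 on the log2 scale.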

How the results depend on the processing

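Medians over the members kept their direction under every alternative run except that for TGFB1 in WT, which lay near 0 (-0.05 in females alone, -0.01 to 0.19 without any 1 library), and the count for KO against WT with TGFB1 stayed between 25 and 30 without any 1 library. Leaving out 1 library gave 0 to 16 calls for KO against WT without cytokine, 0 to 9 with IL12, 9 to 15 for IL12 in WT and 1 to 7 for the difference of TGFB1 responses. For KO against WT without cytokine DESeq2 called 14 and the compared groups alone 18. The compared groups alone gave 2 for KO against WT with IL12. For the difference of TGFB1 responses the count was 2 with no filter, 2 with DESeq2, 5 in females alone and 2 with a term for numbers of 70 or more. Among 55 results on single genes, 1070 alternatives gave 950 on the same side of the threshold, 92 that lost and 28 that gained a call, and 0 in the other direction. Shares of all genes called are not given for the alternative fits of this section, and the cause was not tested.

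Same-numbered libraries correlated at -0.034 to 0.43 (median 0.222, 30 pairs), and 26 of 30 correlated best with their own number, a hint from the data that the labels do not give. With the replicate block in limma-voom the count was 12 for KO against WT without cytokine, 9 for TGFB1 in WT, 13 for IL12 in KO and 6 for the difference of TGFB1 responses. With the replicate block as a fixed term it was 14 for TGFB1 in KO, 11 for TGFB1 in WT, 16 for IL12 in KO and 8 for that difference. The block moved no other count by over 1.5 times.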

Other observations

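Some genes of the other lists had a direction or a response of their own. Iigp1, a GTPase that attacks vacuoles of intracellular parasites, rose in KO relative to WT with TGFB1 (log2 fold change 0.96 ± 0.21 SE, adjusted p = 0.00154), and its TGFB1 response differed between the genotypes (difference 1.47, adjusted p = 0.0164). It had 209, 244, 226, 161 and 281 CPM in KO, against 166, 103, 104, 105 and 98.8 CPM in WT with TGFB1. Cish, a suppressor of cytokine signalling, also rose in KO with TGFB1 (1.002, adjusted p = 0.0307). Ifitm3, which blocks virus entry, fell with TGFB1 in KO (-2.53) and WT (-0.86) and rose with IL12 in KO (1.39) and WT (2.14). Of the 39 further tested interferon-stimulated genes, its list, 1 was higher and 6 lower with IL12 in KO, and 3 higher and 16 lower in WT. Cxcl10, a chemokine led by interferon-gamma, rose with IL12 as well (2.48 in KO and 3.002 in WT). Its list mostly fell: of 18 tested genes 1 was higher and 11 lower with IL12 in KO, and 1 higher and 12 lower in WT. The list medians were -0.57 and -0.59. Of all genes, 5.74% were lower and 8.49% higher with IL12 in KO, and 8.3% and 10.5% in WT. Tlr7, a sensor of single-stranded RNA, rose with TGFB1 in both genotypes (2.01 in KO and 1.78 in WT). These genes were picked after their values were seen.

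Members varied together within groups. Over 30 libraries with group means removed, the median Pearson r of 630 member pairs was 0.54 (from -0.58 to 0.93), with 91.3% above 0, beside a median of 0.0 for all gene pairs. Ifit1 and Ifit3 had r = 0.69, Usp18 and Oas1a 0.75, and Usp18 and Cmpk2 -0.05. The points share library and depth, so these values are a description.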
